A study of Mus musculus with 16 samples.

Results

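Collagens, laminins and their partners build the sheet of matrix that surrounds blood vessels and covers the surface of the brain. The genes described here were chosen by name: every collagen chain, every laminin alpha, beta or gamma chain, both nidogens, perlecan (Hspg2), agrin (Agrn) and fibronectin (Fn1), leaving out the chains of collagen I. Of 58 such genes in the deposited table, 56 had a mean of at least 10 counts over the 16 libraries and form the set, out of 21804 genes in all. They comprise 40 collagen chains, 11 laminin chains and 5 other proteins. Col9a1 (mean 8.47 counts) and Col10a1 (7.44 counts) fell just below the minimum, and Col6a5 (11.2 counts), Col6a6 (11.3 counts) and Col28a1 (12.3 counts) lay just above it. The rule uses names and the mean level over all libraries.

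The samples came from 8 C57BL/6 mice aged 4 months, 4 of genotype Pdgfb ret/wt and 4 of genotype Pdgfb ret/ret, where ret is the retention allele of the growth factor gene Pdgfb. All mice, the ret/wt controls included, carried at least 1 ret allele, so there was no group without it. Each mouse gave 1 library from cortex and 1 from thalamus, which makes 4 groups of 4 libraries, and libraries of 1 genotype with the same replicate number came from the same mouse. In ret/ret thalamus the pieces were calcifications, found by their autofluorescence and cut out, and ret/wt mice gave the same region, while the cortex, a region not prone to calcification, was taken in both genotypes. Genotype and the cutting out of calcifications therefore cannot be told apart in thalamus.

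Basement membranes are thin sheets in which a network of collagen IV and a network of laminin are joined by nidogen and perlecan, and agrin ties laminin to cell surface receptors. In brain capillaries the sheet is laid down by endothelial cells, pericytes and astrocytes, and the alpha 1 and alpha 2 chains of collagen IV form its main collagen. Fibrillar collagens such as collagen III belong to the connective tissue of larger vessels and meninges, made chiefly by fibroblasts and smooth muscle.

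The libraries held 13415391 to 29135064 counts, and 3 counts, taken as the limit of detection, corresponded to 0.103 to 0.224 CPM (counts scaled to a common library total). That limit covers counting error only, whereas the intervals of fold changes given below also include the spread between mice. Marker genes matched the labelled regions: the mean log2 CPM of 10 cortex neuron genes was 5.04 to 6.57 in cortex and 1.22 to 3.29 in thalamus, and that of 10 thalamus neuron genes was 2.44 to 3.5 in cortex and 4.41 to 7.51 in thalamus. Cerebellum genes were high in ret/wt cortex replicate 3 (mean log2 CPM 6.13) and ret/ret cortex replicate 2 (7.64), and choroid plexus genes in ret/wt cortex replicate 4 (4.47). Ret/wt replicate 3 and ret/ret replicate 2 were also the 2 mice with reads of the Y-linked gene Ddx3y, at 55.6 to 67.9 CPM against at most 0.217 CPM in the others. Pdgfb itself was not analysed here, and the labels were not checked on it. Rgs5, a pericyte gene, was lower in ret/ret cortex, with a log2 fold change of -1.70 ± 0.20 (SE; edgeR adjusted p = 0.041). That call was lost in each of 8 fits that left out 1 cortex library (edgeR adjusted p = 0.08 to 0.235), without the mice with Ddx3y reads (0.152), without the 3 cortex libraries set apart by cerebellum or choroid plexus genes (0.313), with the replicate block (0.291) and with upper-quartile scaling (0.0597). Over the 20 alternatives the log2 fold change was -1.82 to -1.59. Here and below an edgeR adjusted p is that of the quasi-likelihood test in edgeR after Benjamini-Hochberg correction over all genes tested.

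Several collagen IV genes lie head to head, so their start regions are shown first, to set their sequence beside how closely the paired genes moved together. Of the 56 genes, 40 had an entry in the RefSeq promoter table (GRCm38.p6), whose windows of equal length run from upstream of each start site to just inside the transcript. Col4a1 (chr8:11312777-11313076, minus strand) and Col4a2 (chr8:11312555-11312854, plus strand) are given 5′ to 3′ on their own strands, and the capitals mark the 78 bases, 11312777 to 11312854, that both windows hold, each as the reverse complement of the other.
Col4a1: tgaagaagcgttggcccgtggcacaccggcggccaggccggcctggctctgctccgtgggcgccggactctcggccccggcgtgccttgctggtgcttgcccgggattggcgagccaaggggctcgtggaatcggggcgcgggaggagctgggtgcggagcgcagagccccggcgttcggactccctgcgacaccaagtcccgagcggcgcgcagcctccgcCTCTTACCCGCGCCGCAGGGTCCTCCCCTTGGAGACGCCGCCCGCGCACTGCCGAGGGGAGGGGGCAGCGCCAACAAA
Col4a2: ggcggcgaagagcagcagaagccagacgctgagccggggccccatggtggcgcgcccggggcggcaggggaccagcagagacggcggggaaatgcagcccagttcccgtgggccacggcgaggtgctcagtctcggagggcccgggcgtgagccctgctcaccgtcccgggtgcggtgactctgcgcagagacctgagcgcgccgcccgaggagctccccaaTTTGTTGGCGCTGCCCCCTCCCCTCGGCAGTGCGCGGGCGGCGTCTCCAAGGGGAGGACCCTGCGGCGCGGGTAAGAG
Col4a5 (chrX:141475169-141475468, plus strand) and Col4a6 (chrX:141474027-141474326, minus strand) also point away from each other, but their windows do not overlap, and here the capitals mark the GC box GGGCGG or its reverse complement CCGCCC and the CCAAT box CCAAT.
Col4a5: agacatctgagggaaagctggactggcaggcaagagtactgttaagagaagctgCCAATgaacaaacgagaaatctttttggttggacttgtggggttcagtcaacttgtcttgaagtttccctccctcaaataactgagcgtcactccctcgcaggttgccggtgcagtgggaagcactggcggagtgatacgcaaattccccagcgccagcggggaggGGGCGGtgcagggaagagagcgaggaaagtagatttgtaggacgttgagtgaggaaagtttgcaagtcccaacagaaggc
Col4a6: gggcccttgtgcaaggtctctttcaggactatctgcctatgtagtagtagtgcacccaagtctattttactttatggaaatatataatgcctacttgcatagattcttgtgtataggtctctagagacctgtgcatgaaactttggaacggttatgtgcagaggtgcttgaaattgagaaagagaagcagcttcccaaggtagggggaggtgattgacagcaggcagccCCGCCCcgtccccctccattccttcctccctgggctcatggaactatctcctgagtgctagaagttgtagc

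The start sites of Col4a1 and Col4a2 lay 21 bases apart in GENCODE's mouse annotation on GRCm38, those of Col4a3 and Col4a4 72 bases apart, and those of Col4a5 and Col4a6 1309 bases apart. The Col4a1 and Col4a2 windows were rich in G and C (74.0% and 73.7%), against 52.7% for Col4a5, 48.3% for Col4a6 and a median of 52.7% over all 27025 promoters in the table. The shared part of the first pair held 1 GC box and no match to the CCAAT box or to the TATA box, TATAAA. Searched on both strands, with matches to different motifs free to overlap, the GC box was found in 27 of 40 windows of the set (67.5%) and 35.9% of all promoters, the CCAAT box (or ATTGG) in 32.5% and 37.9%, and the TATA box in 10% and 14.2%. The median share of G and C was 61.0% in the 40 windows of the set and 52.7% over all promoters. The GC box consists of G and C only, and the part of base content in its share was not tested. Members also passed a minimum count, which was not asked of all promoters. These matches describe the letters alone.

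Col4a1 (ENSMUSG00000031502, chromosome 8, 11198423 to 11312826, minus strand) and Col4a2 (ENSMUSG00000031503, chromosome 8, 11312805 to 11449287, plus strand) encode the chains of the collagen IV found in nearly all basement membranes. In replicate order, Col4a1 was at 27.6, 24.1, 17.6 and 46.4 CPM in ret/wt cortex, 97.1, 14.2, 27.5 and 23.2 CPM in ret/ret cortex, 37.5, 27.5, 20.3 and 22.4 CPM in ret/wt thalamus and 47, 19, 35.9 and 16.2 CPM in ret/ret thalamus. Col4a2 was at 30.2, 26.5, 13.1 and 41.2 CPM in ret/wt cortex, 64.2, 13.6, 29.9 and 29.3 CPM in ret/ret cortex, 35.5, 37.5, 18.4 and 24.5 CPM in ret/wt thalamus and 64.6, 24.2, 30.2 and 24.1 CPM in ret/ret thalamus. The mouse labelled ret/ret replicate 1 held the highest ret/ret value of both genes in both regions, and the genotypes overlapped in both regions. Per kilobase of exon, Col4a1 stood at 0.873 ± 0.207 times Col4a2 (SD, n = 16 libraries), with a range of 0.596 to 1.34.

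After the 4 group means were taken away, log2 CPM of Col4a1 and Col4a2 correlated at a Pearson r of 0.91 over the 16 libraries, the closest to Col4a1 of the other 55 members. Col25a1 (r = 0.70), a membrane collagen of neurons, Lama3 (0.56), Lamc3 (0.52) and Col6a3 (0.47) came next. Among 15285 genes, those most like Col4a1 included Serpina3n (0.92), Col4a2 (0.91), Stc1 (0.90) and Man2b1 (0.89). The X-linked pair Col4a5 and Col4a6 correlated at 0.83, and the pair Col4a3 and Col4a4, with starts 72 bases apart, at 0.32. Col4a3 was at or under 3 counts in 4 libraries, and its values carry more counting error than the others. Neighbours that are not head to head could be close as well. Col6a1 and Col6a2, with starts 102538 bases apart, correlated at 0.85. Col3a1 and Col5a2, with starts 191744 bases apart, correlated at 0.71. The part of the start regions in these correlations was not tested. All of them describe libraries that share mice, dissection and depth.

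**Figure D1:**
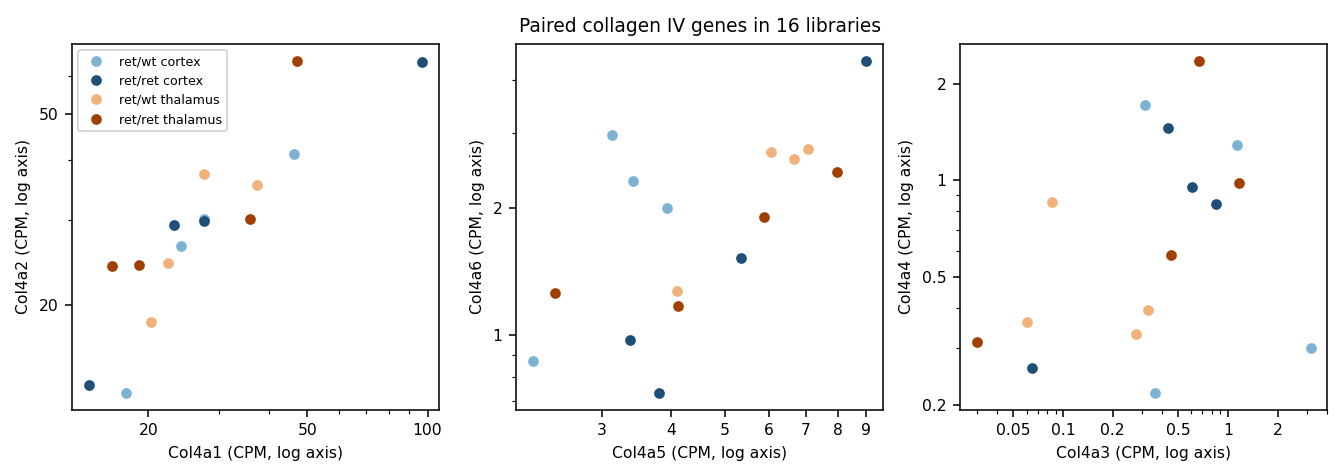
CPM of the gene pairs of collagen IV in 16 libraries, on log axes, one point per library and colours for the 4 groups; the single 0 (Col4a3 in ret/ret thalamus replicate 2) is drawn at 0.03 CPM. Col4a1 and Col4a2 follow one line from 13.1 to 97.1 CPM, with ret/ret replicate 1 at its upper end in both regions, Col4a5 and Col4a6 are more spread, and Col4a3 and Col4a4 scatter widely below 4 CPM.

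Col4a1 and Col4a2 together made up most of the collagen IV signal. Shares are of the 6 chains summed, on the scale of CPM per kilobase of exon (SD, n = 4 each). Col4a1 took 42.7% ± 2.62 in ret/wt cortex, 41.2% ± 9.64 in ret/ret cortex, 39.3% ± 4.43 in ret/wt thalamus and 37.5% ± 6.83 in ret/ret thalamus. Col4a2 took 45.7% ± 6.84, 44.7% ± 8.96, 47.0% ± 3.95 and 51.0% ± 5.03 in the same order. The ranges of the groups overlapped for both genes, and these shares were not tested. Col4a5 took group means of 5.74% to 9.88%, Col4a6 2.20% to 3.17%, Col4a4 0.494% to 1.18% and Col4a3 0.207% to 1.86%. Col4a3 and Col4a4, chains best known from the kidney filter, were the least abundant of the 6.

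Neither main chain passed the test between genotypes. The log2 fold change of ret/ret over ret/wt was 0.16 ± 0.35 (SE; 95% interval -0.62 to 0.94) for Col4a1 and 0.33 ± 0.36 (-0.47 to 1.13) for Col4a2 in thalamus. In cortex it was 0.49 ± 0.56 (-0.76 to 1.74) and 0.31 ± 0.46 (-0.72 to 1.33). The sign rested on 1 mouse. Without ret/ret replicate 1 the log2 fold changes of Col4a1 and Col4a2 were -0.17 and -0.13 in thalamus, -0.42 and -0.19 in cortex, and -0.34 and -0.19 with the regions of each mouse summed. That mouse also had the highest mean log2 CPM of 12 endothelial markers within its genotype in both regions, 5.19 in cortex and 5.62 in thalamus, where the other ret/ret libraries lay at 4.26 to 4.85. The microglia marker mean of that mouse was likewise the highest in ret/ret. It was 5.45 in cortex (others 4.2 to 5.05) and 5.75 in thalamus (others 5.15 to 5.22). The part of these markers in the result was not tested. In bulk tissue more or fewer cells of a type and more or less RNA per cell cannot be told apart.

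Laminins are trimers of 1 alpha, 1 beta and 1 gamma chain. In brain, alpha 2 is typical of astrocytes and pericytes, alpha 4 and alpha 5 of endothelium, and alpha 1 of the pial surface. Lama2 was at 21.1, 20.4, 16.1 and 15.4 CPM in ret/wt cortex, 19.3, 33.4, 17.7 and 13.9 in ret/ret cortex, 26.4, 29.1, 21.3 and 30.7 in ret/wt thalamus and 35, 15.8, 10.8 and 15.1 in ret/ret thalamus. In ret/wt all 4 thalamus libraries lay above the 4 cortex libraries, with a log2 fold change of 0.55 ± 0.20 (SE) that did not pass (edgeR adjusted p = 0.111). Lama4 was at 10.3, 15.9, 8.73 and 5.17 CPM in ret/wt cortex, 18.1, 8.03, 12.2 and 13.8 in ret/ret cortex, 8.02, 2.43, 2.35 and 15.6 in ret/wt thalamus and 15.1, 8.75, 12.4 and 10.7 in ret/ret thalamus. Lama5 was at 15.2, 3.26, 4.79 and 15.9 CPM in ret/wt cortex, 17.1, 7.38, 6.8 and 5.77 in ret/ret cortex, 10.9, 2.49, 7.41 and 31.3 in ret/wt thalamus and 16.4, 10.1, 10.8 and 25.2 in ret/ret thalamus. The groups of Lama4 and Lama5 overlapped throughout. Lama1 was at 6.49, 2.68, 3.55 and 3.01 CPM in ret/wt cortex, 5.28, 4.49, 3.0 and 3.37 in ret/ret cortex, 6.48, 7.35, 1.93 and 10.3 in ret/wt thalamus and 7.88, 2.33, 2.93 and 11.3 in ret/ret thalamus, and the groups overlapped.

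Among the alpha chains, Lama2 took 30.2% ± 3.55 of the summed CPM per kilobase in ret/wt cortex, 31.5% ± 14.1 in ret/ret cortex, 43.5% ± 13.6 in ret/wt thalamus and 26.3% ± 8.88 in ret/ret thalamus (SD, n = 4 each). The shares of Lama4 were 12.1% ± 5.89 in ret/wt thalamus and 23.4% ± 6.96 in ret/ret thalamus, with ranges of 6.40% to 18.1% and 16.2% to 32.8%. Both ranges overlapped, and no test was made of the shares.

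Among the beta chains, Lamb2, the beta chain typical of adult vessels and of synapses, took 60.8% to 71.6% of the summed CPM per kilobase as group means, and Lamb1 25.1% to 30.8%. Lamb1 was at 11, 16.2, 11.8 and 36.9 CPM in ret/wt cortex, 25.8, 24.6, 7.16 and 16.5 in ret/ret cortex, 25.3, 14.1, 25.6 and 19.5 in ret/wt thalamus and 13.7, 23.8, 13.3 and 4.76 in ret/ret thalamus. Lamb2 was at 18.5, 53.8, 10.8 and 24.8 CPM in ret/wt cortex, 20.8, 42.9, 13.9 and 15.1 in ret/ret cortex, 42.5, 40, 18.5 and 31.8 in ret/wt thalamus and 42.5, 14.9, 20.3 and 32.9 in ret/ret thalamus. Neither beta chain separated any pair of groups.

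Lamc1, the common gamma chain, was at 25, 35.2, 25.1 and 23.9 CPM in ret/wt cortex, 29.1, 28.7, 32 and 36.4 in ret/ret cortex, 28.3, 50.7, 17.7 and 55.9 in ret/wt thalamus and 60.7, 39.3, 19.3 and 37.8 in ret/ret thalamus. It passed in no comparison. Lamc3, another gamma chain, was at 5.86, 4.85, 1.8 and 4.41 CPM in ret/wt cortex, 5.35, 3.58, 3.03 and 2.4 in ret/ret cortex, 8.37, 8.01, 1.99 and 7.73 in ret/wt thalamus and 14, 1.44, 2.05 and 3.38 in ret/ret thalamus, and its groups overlapped.

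Nidogens link the laminin and collagen IV networks. Nid1 was at 8.29, 5.65, 13 and 4.79 CPM in ret/wt cortex, 9.9, 25.9, 4.71 and 6.75 in ret/ret cortex, 16.3, 12.5, 11 and 12.7 in ret/wt thalamus and 25.7, 5.97, 5.72 and 16 in ret/ret thalamus. Nid2 was at 5.94, 2.75, 4.96 and 2.69 CPM in ret/wt cortex, 3.25, 1.08, 2.59 and 3.96 in ret/ret cortex, 5.11, 4.97, 1.39 and 2.42 in ret/wt thalamus and 8.15, 0.897, 1.47 and 4.76 in ret/ret thalamus. Both genes overlapped between all groups. Perlecan, a large heparan sulfate proteoglycan, was at 8.29, 13.3, 1.93 and 7.75 CPM in ret/wt cortex, 8.46, 18.2, 6.91 and 15.2 in ret/ret cortex, 15.2, 15.5, 2.71 and 21.3 in ret/wt thalamus and 35.9, 4.67, 15.6 and 21.4 in ret/ret thalamus. Its log2 fold change by genotype was 0.66 ± 0.52 (SE; 95% interval -0.51 to 1.83) in cortex and 0.52 ± 0.64 (-0.90 to 1.94) in thalamus, and neither passed. After group means were taken away, Hspg2 followed the mean log2 CPM of 12 pericyte markers with r = 0.91 over 16 libraries, a description over libraries that share mice and depth.

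Agrin was the most abundant member per kilobase, at 12.6 CPM per kilobase of exon over all libraries, followed by Fn1 at 6.35, Col4a2 at 4.79, Lamb2 at 4.56 and Col25a1 at 4.49. The groups of the last 3 overlapped, so their order is not set beyond the spread. Agrn (ENSMUSG00000041936, chromosome 4, 156165290 to 156197488, minus strand) was at 133, 186, 88.8 and 131 CPM in ret/wt cortex, 111, 66.2, 115 and 125 in ret/ret cortex, 117, 106, 96.5 and 197 in ret/wt thalamus and 100, 116, 109 and 76.2 in ret/ret thalamus. Its log2 fold change by genotype was -0.36 ± 0.25 (SE; 95% interval -0.93 to 0.21) in cortex and -0.35 ± 0.26 (-0.92 to 0.23) in thalamus, and neither passed. Fn1 (ENSMUSG00000026193, chromosome 1, 71585520 to 71653200, minus strand) was at 94.6, 90.7, 44.7 and 55.6 CPM in ret/wt cortex, 83.3, 66.6, 46.6 and 131 in ret/ret cortex, 97.1, 47.6, 25.3 and 118 in ret/wt thalamus and 109, 50.7, 50.5 and 75.1 in ret/ret thalamus. Its log2 fold change was 0.21 ± 0.34 (-0.56 to 0.97) in cortex and 0.00 ± 0.45 (-1.0 to 1.01) in thalamus and did not pass in either region. Fn1 followed the pericyte markers with r = 0.84, measured as for Hspg2.

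**Figure D2:**
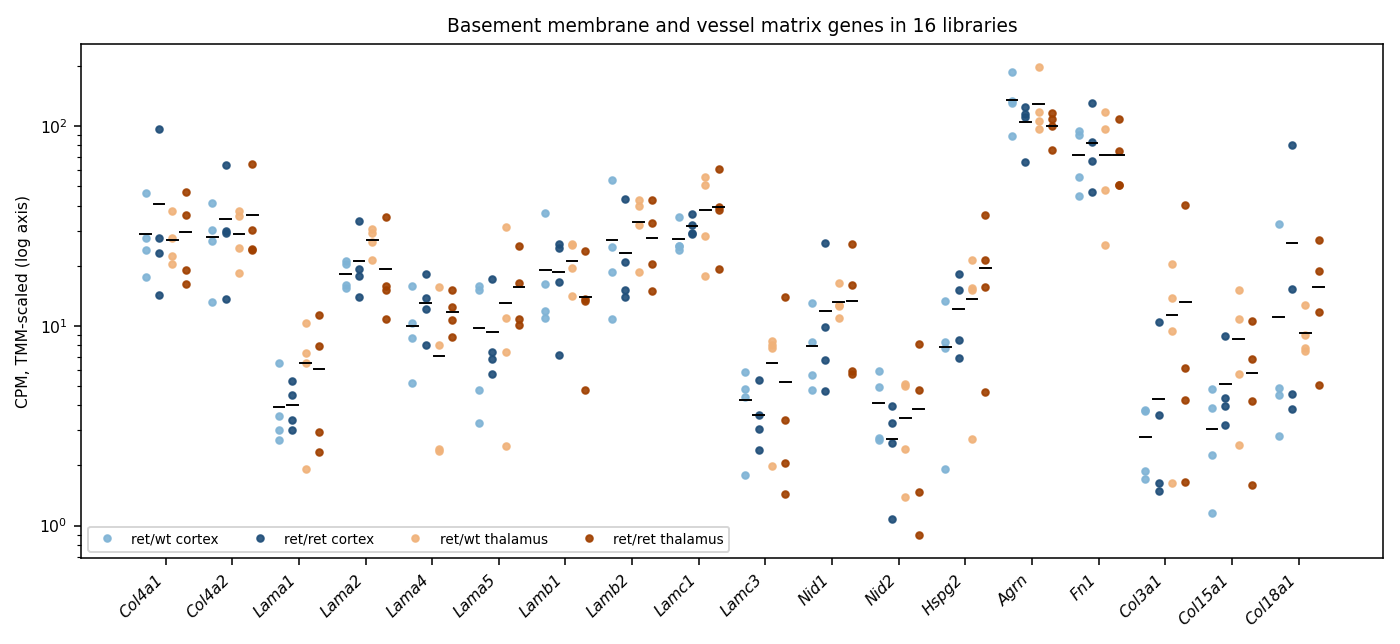
CPM of 18 basement membrane and vessel matrix genes in the 16 libraries, on a log axis; points are single libraries in 4 colours for the groups and black bars are group means of 4. The genotypes overlap for all 18 genes in both regions, Agrn and Fn1 are highest with group means from 71.4 to 135 CPM, and Col18a1 has 1 high library in each cortex group (32.2 and 80.3 CPM).

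Collagens XV and XVIII carry heparan sulfate or chondroitin sulfate chains and lie at the outer face of basement membranes. Col15a1 was at 4.85, 2.25, 1.16 and 3.87 CPM in ret/wt cortex, 3.98, 8.93, 4.35 and 3.18 in ret/ret cortex, 15.2, 10.8, 2.53 and 5.77 in ret/wt thalamus and 6.85, 4.22, 10.6 and 1.59 in ret/ret thalamus. Col18a1 was at 4.53, 2.82, 32.2 and 4.9 CPM in ret/wt cortex, 15.3, 80.3, 4.57 and 3.83 in ret/ret cortex, 7.51, 12.7, 7.77 and 9.04 in ret/wt thalamus and 18.8, 11.7, 5.04 and 26.9 in ret/ret thalamus. Its high cortex values were in ret/wt replicate 3 and ret/ret replicate 2, the libraries with cerebellum genes, and after group means were taken away Col18a1 followed the cerebellum markers with r = 0.87 over 16 libraries. The part of these markers was not tested. Col3a1, the fibrillar collagen of vessel walls and meninges, was at 3.75, 3.77, 1.71 and 1.88 CPM in ret/wt cortex, 10.5, 3.58, 1.64 and 1.49 in ret/ret cortex, 20.5, 9.39, 1.63 and 13.8 in ret/wt thalamus and 40.4, 4.26, 1.66 and 6.15 in ret/ret thalamus. The value of 40.4 CPM belonged to ret/ret thalamus replicate 1, which was the highest library for 15 of the 56 members and had fibroblast and endothelial marker means of 4.64 and 5.62 log2 CPM. The part of these markers was not tested.

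Members were compared with 11 lists of cell type markers through the same correlation. The closest list was that of fibroblast and meningeal markers for 14 members, pericyte markers for 12 and microglia markers for 11. Endothelial markers were closest for 2 members, Col3a1 (r = 0.83) and Col6a6 (0.66). Col6a2 (0.90), Col13a1 (0.87), Lama1 (0.82) and Nid1 (0.79) stood closest to the fibroblast and meningeal markers. Col5a2 (0.86), Col9a2 (0.85) and Lamc3 (0.84) stood closest to the pericyte markers, and Col4a1 (0.61), Col4a2 (0.69) and Lama3 (0.80) to the microglia markers. Col4a1 (-0.65), Col4a2 (-0.75) and Lama3 (-0.7) also correlated negatively with the cerebellum markers, which were high in 2 cortex libraries. For several members the second list was nearly as close. It was the fibroblast and meningeal list for Col3a1 (0.81) and Col5a2 (0.81), and the pericyte list for Col6a2 (0.87) and Lama1 (0.80). For Lama3 it was further off (endothelial markers, 0.44). The closest list therefore does not assign a member to a cell type. The points share mouse, dissection and depth, and with 11 lists per member the closest is by construction high.

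The first comparison asked how tissue with calcifications differed from the same region of control mice. In thalamus 52 of the 56 members passed the filter on low counts, and 0 passed an edgeR adjusted p of 0.05, where 0 of 14767 genes did (0.0%). At an unadjusted p under 0.05 there were 2 members (3.85%), both lower in ret/ret, against 3.93% of all genes (0.88% lower), and DESeq2 called 0 members. The members split evenly by sign, with 26 above 0 (50%, and 47.1% of all genes), and their median log2 fold change was -0.03, against -0.02 over all genes. Precision was lower than for the average gene: the median width of the 95% interval was 2.44 log2 units for members and 1.25 for all genes, and the interval lay wholly within 1 log2 unit of 0 for 5 members (9.62%) against 63.2% of all genes.

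The member with the smallest p in thalamus was Col11a2, a chain of the minor fibrillar collagen XI. It was at 15.8, 19.4, 17.2 and 40.7 CPM in ret/wt and 7.07, 15.3, 11.4 and 16.8 CPM in ret/ret thalamus, a log2 fold change of -0.87 ± 0.37 with an unadjusted p of 0.041 and an edgeR adjusted p of 1.0. The groups overlapped between 15.8 and 16.8 CPM, and ret/wt replicate 4 stood far above the rest. Its partner chain Col11a1 was at 10.4, 12.4, 4.82 and 7.93 CPM in ret/wt and 3.06, 5.61, 6.01 and 5.89 CPM in ret/ret thalamus, with a log2 fold change of -0.77. Col24a1, another fibrillar chain, was at 0.858, 3.87, 1.81 and 1.05 CPM in ret/wt and 0.586, 1.35, 0.489 and 0.666 CPM in ret/ret thalamus (log2 fold change -1.26). Col14a1, a collagen that sits on fibrils, was at 3.09, 1.93, 0.181 and 3.01 CPM in ret/wt and 5.99, 4.04, 2.3 and 5.48 CPM in ret/ret thalamus (1.13). Col18a1, given above, had 0.77 and Lama3 0.58, and none of the 6 passed. Lama3 was the 1 member whose groups did not overlap (2.8% of all genes did not), at 2.15, 1.99, 1.87 and 1.7 CPM in ret/wt and 3.42, 2.78, 2.15 and 3.02 CPM in ret/ret thalamus, where the nearest values are equal after rounding. The mean log2 CPM of 10 microglia markers did not overlap there either, at 4.35 to 4.87 (ret/wt) and 5.15 to 5.75 (ret/ret), and 0 of the 10 passed the adjusted threshold, with 8 higher at an unadjusted p under 0.05 and a median log2 fold change of 0.73. The part of these markers in the Lama3 values was not tested.

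In cortex 54 members were tested and 0 passed, against 3 of 14288 genes (0.021%), and DESeq2 also called 0 members. At an unadjusted p under 0.05 there were 2 members (3.70%), both lower in ret/ret, against 3.77% of all genes (1.14% lower), and 0 members had groups that did not overlap, against 2.39%. The median log2 fold change was -0.0 for members and 0.01 for all genes. Col8a1, a short-chain collagen of endothelium and smooth muscle, was at 5.32, 3.48, 7.1 and 9.52 CPM in ret/wt and 1.88, 4.27, 3.69 and 2.92 CPM in ret/ret cortex, a log2 fold change of -0.98 ± 0.39 with an unadjusted p of 0.029 and an edgeR adjusted p of 0.999. Col6a1 was at 14.4, 27.2, 14.8 and 40.5 CPM in ret/wt and 17.6, 13.6, 10.5 and 13.1 CPM in ret/ret cortex, a log2 fold change of -0.82 with an unadjusted p of 0.0405. The highest ret/wt values of Col8a1, 7.1 and 9.52 CPM, were in replicates 3 and 4. Those cortex libraries were high in cerebellum genes (replicate 3) and choroid plexus genes (replicate 4). The 40.5 CPM of Col6a1 was in replicate 4 too. The part of these markers was not tested. Col6a2, which is joined to Col6a1 in every collagen VI monomer, was at 13.6, 13.3, 9.07 and 13.8 CPM in ret/wt and 6.07, 12.2, 5.12 and 9.41 CPM in ret/ret cortex (-0.59). None of these values passed. Col4a5 was at 3.13, 2.25, 3.42 and 3.93 CPM in ret/wt and 5.35, 9.02, 3.8 and 3.37 CPM in ret/ret cortex, a log2 fold change of 0.77. Col9a2, a chain of a collagen that coats fibrils, was at 8.52, 5.79, 3.04 and 4.3 CPM in ret/wt and 7.44, 11.5, 5.45 and 9.15 CPM in ret/ret cortex (0.65). Col6a6, with a log2 fold change of 1.49, was near the limit of detection, at 0.704, 0.217, 0.342 and 0 CPM in ret/wt and 1.08, 0.906, 0.694 and 0.779 CPM in ret/ret cortex. The last 3 did not pass and their groups overlapped.

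**Figure D3:**
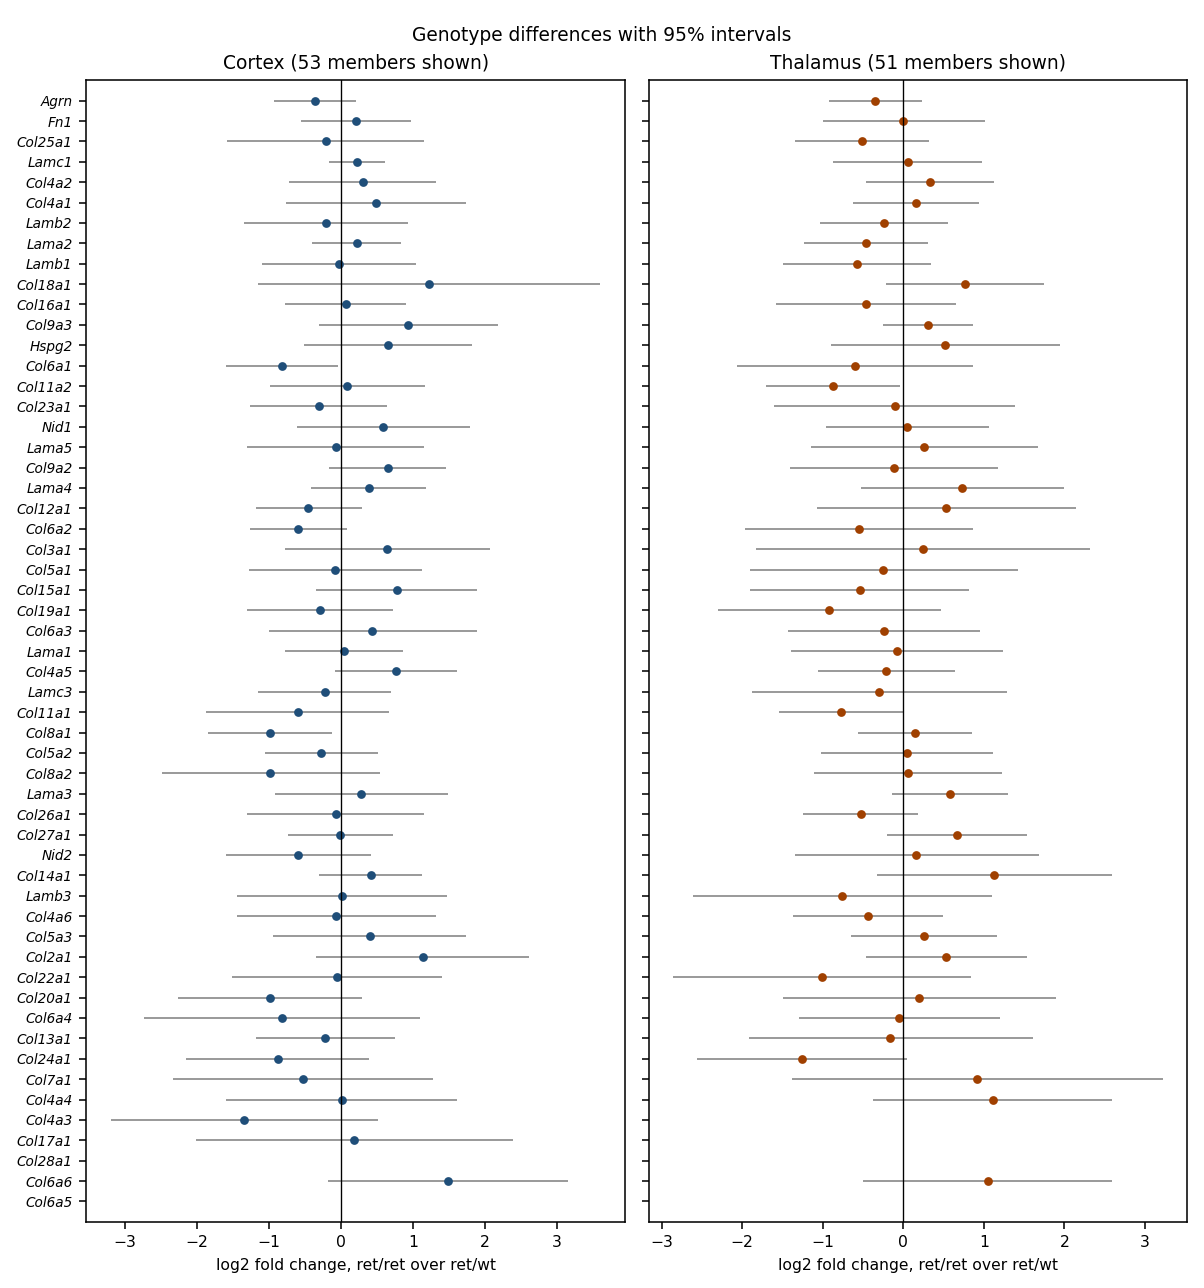
Log2 fold change of ret/ret over ret/wt for members tested, with 95% intervals, in cortex (53 shown) and thalamus (51 shown), ordered by mean level from Agrn at the top; a row without a point is a gene that did not pass the filter on low counts. Most intervals cross 0 and widen toward the bottom, and the point estimates lie between -1.34 and 1.49.

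With the cortex and thalamus counts of each mouse summed, so that the mouse was the unit, all 56 members were tested and 0 passed, against 2 of 15505 genes (0.0129%), and DESeq2 called 0 members. At an unadjusted p under 0.05 there were 7 members (12.5%), 4 higher and 3 lower in ret/ret, against 5.13% of all genes (3.62% higher and 1.51% lower). Col6a6, a rare chain of the collagen VI family, had the smallest p, with a log2 fold change of 1.32 ± 0.42, an unadjusted p of 0.0109 and an edgeR adjusted p of 0.752. Its level was at most 1.53 CPM in any library, and the thalamus values were 0.215, 0.552, 0.121 and 0.655 CPM in ret/wt and 1.53, 0.538, 0.293 and 0.768 CPM in ret/ret. Lama4 had a log2 fold change of 0.57 (unadjusted p = 0.0354), Col14a1 0.79 (0.0342), Col2a1, the cartilage collagen, 0.78 (0.041), Col11a1 -0.82 (0.0374), Col6a1 -0.80 (0.0394) and Col24a1 -1.15 (0.0459). Col2a1 was at 0.313, 0.869, 0.513 and 1.67 CPM in ret/wt cortex, 1.08, 3.37, 0.585 and 2.4 in ret/ret cortex, 1.2, 1.66, 2.83 and 1.64 in ret/wt thalamus and 3.69, 1.21, 2.59 and 2.97 in ret/ret thalamus, and the genotypes overlapped in both regions. Rgs5, named above as a pericyte gene, fell by 1.59 on the log2 scale in the same fit (edgeR adjusted p = 0.014), a call that was lost in 6 of 8 fits leaving out 1 mouse (0.0539 to 0.111), without the mice with Ddx3y reads (0.0999) and with the replicate block (0.194). Endothelial markers had a median of 0.64 with 0 of 12 past the adjusted threshold. The mean log2 CPM of 12 pericyte markers in cortex was 2.17 to 2.88 (ret/wt) and 0.88 to 1.49 (ret/ret). In thalamus it was 2.52 to 3.42 (ret/wt) and 1.62 to 2.84 (ret/ret). The part of these markers in the members' values was not tested.

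Whether the genotype difference was the same in both regions was asked with the interaction of genotype and region over all 16 libraries. Libraries of the same mouse were not paired in this fit. None of the 56 members passed (0 of 15286 genes did, 0.0%), and DESeq2 called 0 members. At an unadjusted p under 0.05 there was 1 member against 1.6% of all genes. It was Col8a1, with a difference of 1.11 ± 0.49 log2 units (unadjusted p = 0.0377, edgeR adjusted p = 1.0). Col8a1 was at 5.23, 3.59, 3.68 and 2.82 CPM in ret/wt and 5.14, 3.05, 3.77 and 4.76 CPM in ret/ret thalamus, where the groups overlapped widely.

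The second axis of the study was region. In ret/ret the thalamus pieces were cut-out calcifications and the cortex pieces were not, so region and calcification cannot be told apart there. The same holds for the ret/ret libraries in the interaction and in the region fit over both genotypes. In ret/wt 51 members were tested and 6 passed (11.8%), against 12.6% of all 14442 genes, with 2 higher and 4 lower in thalamus (5.44% and 7.12% of all genes). In ret/ret 54 were tested and 2 passed (3.70%), against 9.5% of 14715 genes, both lower in thalamus (5.4% of all genes). Groups did not overlap for 8 members in ret/wt (15.7%, and 20.0% of all genes) and for 3 in ret/ret (5.56%, and 17.6%). The shares were thus close to or under those of all genes. The median log2 fold change of thalamus over cortex was 0.29 for members and 0.03 for all genes in ret/wt, and 0.20 and -0.02 in ret/ret. Upper-quartile scaling moved the members' medians by 0.11 and 0.13 and changed the sign of 2 members in each genotype.

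Lama3, an alpha chain found mainly in epithelia, was at 6.49, 8.18, 4.06 and 4.04 CPM in ret/wt cortex and 12.6, 1.68, 4.6 and 8.69 CPM in ret/ret cortex, against the 1.70 to 3.42 CPM of the thalamus libraries given above. Lama3 fell by 1.56 ± 0.34 log2 units in ret/wt (edgeR adjusted p = 0.0136, and 0.0501 without cortex replicate 2). In ret/ret, where replicate 2 went the other way, the value was -1.29 (edgeR adjusted p = 0.16). The cortex library of that replicate was high in cerebellum genes. Without it the ret/ret value was -1.59 and passed (edgeR adjusted p = 0.027), as it did without the mice with Ddx3y reads (0.0373). Lamb3, a beta chain of epithelia, was at 1.8, 8.26, 1.07 and 1.78 CPM in ret/wt cortex, 3.95, 0.608, 5.36 and 0.917 in ret/wt thalamus, 2.75, 2.72, 1.83 and 5.64 in ret/ret cortex and 3.83, 0.404, 0.636 and 1.38 in ret/ret thalamus. Its log2 fold changes of -0.25 and -1.06 did not pass.

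Col19a1 (ENSMUSG00000026141, chromosome 1, 24261890 to 24587472, minus strand) encodes a fibril-associated collagen made by some cortical interneurons. It was at 15, 7.39, 8.64 and 10.9 CPM in ret/wt cortex and 3.05, 3.31, 0.663 and 1.18 CPM in ret/wt thalamus. In ret/ret it was at 3.61, 5.52, 17.6 and 7.46 CPM in cortex and 0.496, 0.673, 2.0 and 1.13 CPM in thalamus, and neither genotype overlapped between regions. Col19a1 fell by 2.35 ± 0.49 log2 units in ret/wt (edgeR adjusted p = 0.0116) and by 3.01 ± 0.61 in ret/ret (edgeR adjusted p = 0.0174). In ret/ret the edgeR adjusted p was 0.0511 without thalamus replicate 1, 0.0537 without thalamus replicate 4 and 0.0501 without cortex replicate 3. After group means were taken away it was closest to the cortex neuron markers (r = 0.50), which were themselves lower in thalamus, and their part was not tested.

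Collagen VI forms beaded filaments beside basement membranes, and its chains went in different directions. Col6a3 was at 2.11, 1.45, 3.34 and 4.2 CPM in ret/wt cortex and 9.7, 8.51, 11.5 and 4.85 CPM in ret/wt thalamus, a rise of 1.61 ± 0.40 log2 units (edgeR adjusted p = 0.0243; 0.0576 with the mouse as a block). In ret/ret, at 4.41, 0.69, 2.34 and 7.85 CPM in cortex and 12.3, 1.35, 6.75 and 8.4 CPM in thalamus, the value was 0.90 ± 0.75 and did not pass. Col6a4 was at 4.07, 3.04, 1.5 and 2.15 CPM in ret/wt cortex and 0.687, 0.608, 0.844 and 1.11 CPM in ret/wt thalamus, a fall of 1.72 ± 0.44 log2 units (edgeR adjusted p = 0.0274; 0.0785 with the block). The Col6a4 values in ret/ret were 4.12, 0.173, 0.256 and 1.62 CPM in cortex and 0.225, 1.21, 0.587 and 1.08 CPM in thalamus, and the high cortex value of replicate 1 decided their sign: the log2 fold change was -0.98 with it and 0.24 without it. Leaving out 1 ret/wt library ended the passing of Col6a3 and Col6a4 when it was cortex replicate 1 or 2 or thalamus replicate 1, 2 or 3, and ended that of Col11a2 in 7 of 8 cases.

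Of the collagen XI chains, Col11a2 passed in ret/wt alone. It was at 9.69, 8.4, 5.05 and 13.9 CPM in ret/wt cortex, below all 4 ret/wt thalamus libraries given above, a rise of 1.33 ± 0.39 log2 units (edgeR adjusted p = 0.0479). In ret/ret cortex it was at 19.4, 4.88, 4.9 and 10.3 CPM, and the value of 0.35 did not pass. Col11a1 was at 2.5, 6.23, 2.05 and 2.21 CPM in ret/wt cortex and 3.47, 0.561, 2.3 and 2.21 CPM in ret/ret cortex. Its log2 fold changes of 1.45 (edgeR adjusted p = 0.0581) and 1.26 (0.147) fell short in the separate genotypes, and with the mouse as a block Col11a1 passed in ret/wt. None of the regional differences named here passed the interaction with genotype.

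**Figure D4:**
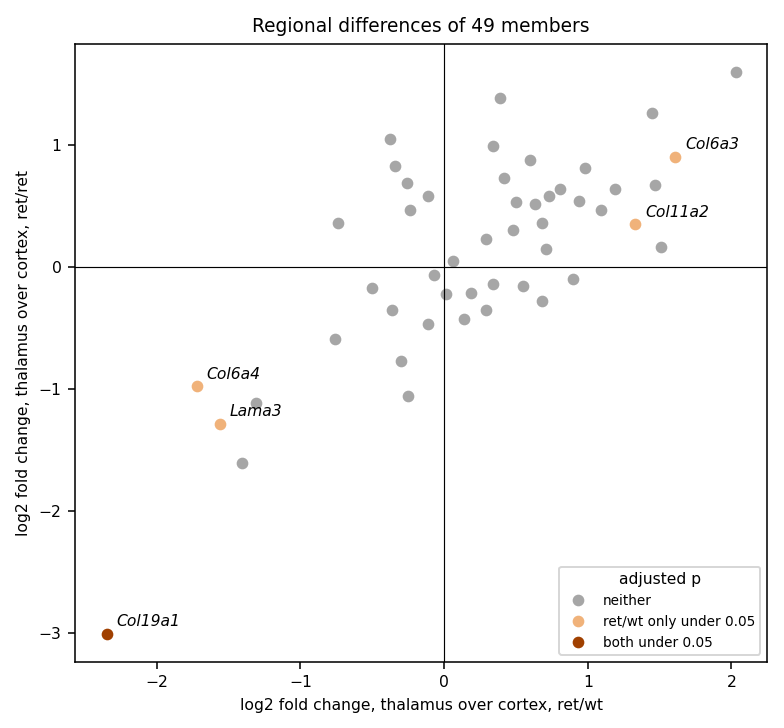
Log2 fold change of thalamus over cortex for 49 members tested in both genotypes, ret/wt on the x axis and ret/ret on the y axis; colours mark an adjusted p under 0.05 in both, in ret/wt, or in neither. Col19a1 lies far below 0 on both axes, at -2.35 and -3.01, and Col6a3 and Col11a2 lie to the right.

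A fit of region over both genotypes, with the mouse as a block, was added after seeing the data and uses the same libraries as the separate fits. In it 9 of 53 members passed (17.0%), 5 higher and 4 lower in thalamus, against 30.6% of 14521 genes (14.4% higher and 16.1% lower). Those lower included Col19a1 (-2.75 ± 0.28, edgeR adjusted p = 4.8e-05), Col6a1 (-1.45 ± 0.32, 0.00611) and Lama3 (-1.26 ± 0.29, 0.00823). Those higher were Col11a1 (1.48 ± 0.32, edgeR adjusted p = 0.00574), Col3a1 (1.37 ± 0.37, 0.0165), Col6a3 (1.34 ± 0.30, 0.00624), Col5a3 (1.04 ± 0.34, 0.0367) and Col11a2 (0.96 ± 0.31, 0.0388). Col19a1 was lower in thalamus in all 8 mice and Lama3 in 7. In thalamus Col6a1 was at 14.8, 10, 1.63 and 12.7 CPM in ret/wt and 13.7, 2.65, 3.62 and 5.48 CPM in ret/ret. Col5a3, a minor chain of collagen V, was at 0.938, 0.797, 0.813 and 1.78 CPM in ret/wt cortex, 2.75, 2.15, 1.02 and 2.69 in ret/wt thalamus, 1.3, 3.02, 0.439 and 0.908 in ret/ret cortex and 2.97, 2.02, 2.0 and 3.18 in ret/ret thalamus. Leaving out 1 mouse ended the passing of Col3a1 in 1 of 8 cases, that of ret/ret replicate 1 (edgeR adjusted p = 0.0516). It ended that of Col5a3 in 6 of 8 cases, with ret/wt replicate 1, 2 or 4 or ret/ret replicate 1, 3 or 4 left out (0.0503 to 0.0958). It ended that of Col11a2 in 7 of 8 cases, all but ret/ret replicate 1 (0.0637 to 0.0915). Without the block Col5a3 was at 0.0629 and Col11a2 at 0.0684, and without the mice with Ddx3y reads Col11a2 was at 0.159.

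**Figure D5:**
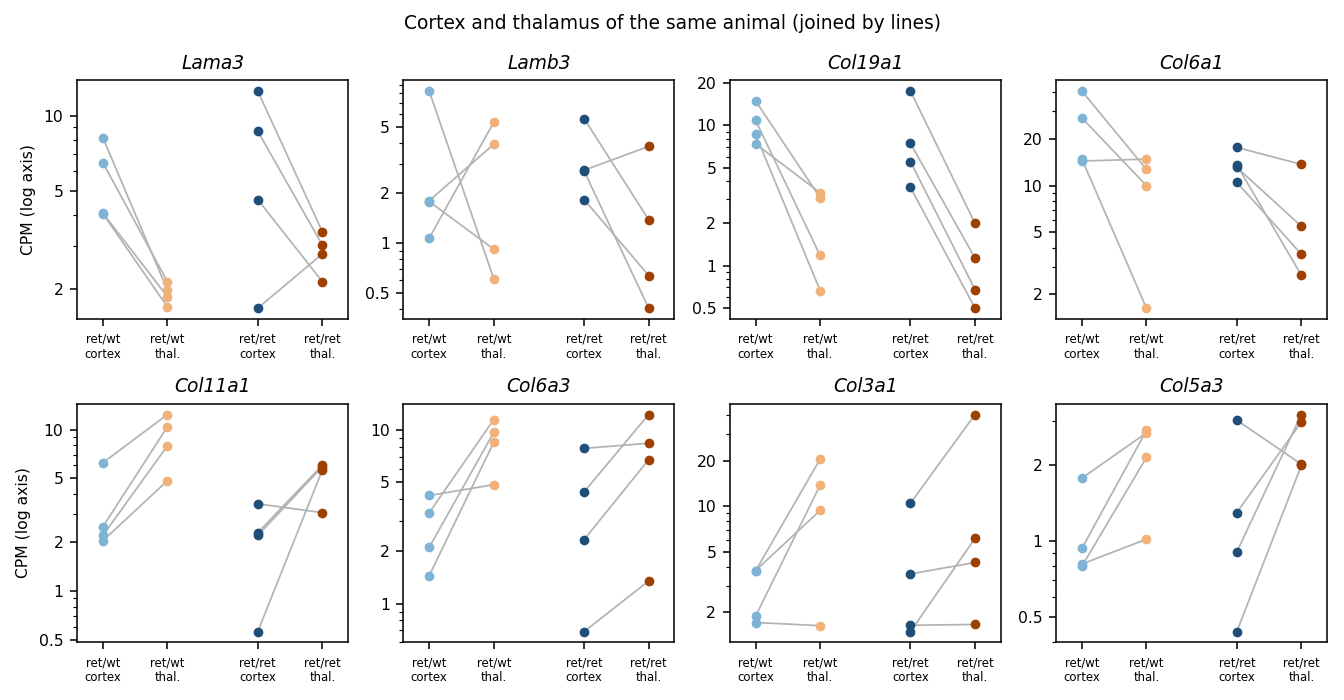
CPM of 8 members in cortex and thalamus, on log axes, with a line joining the libraries of each mouse; ret/wt on the left and ret/ret on the right of each panel. Col19a1 slopes down in all 8 mice and Lama3 in 7, while Lamb3 slopes both ways (from 8.26 down to 0.608 CPM in ret/wt replicate 2 and from 1.07 up to 5.36 CPM in replicate 3).

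Levels of cell type markers were compared between the regions as well. The mean log2 CPM of oligodendrocyte markers was 6.33 to 7.13 in cortex and 8.14 to 8.61 in thalamus, and pericyte markers were 2.17 to 2.88 in ret/wt cortex and 2.52 to 3.42 in ret/wt thalamus. In ret/ret the pericyte markers were at 0.88 to 1.49 in cortex, below the 1.62 to 2.84 of the thalamus libraries. Fibroblast and meningeal markers overlapped widely, from 2.88 to 3.47 (ret/wt) and 1.72 to 4.22 (ret/ret) in cortex, and from 1.92 to 4.65 (ret/wt) and 1.74 to 4.64 (ret/ret) in thalamus. The part of cell composition in the regional differences was not tested.

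Genes that make, cut, bind or accompany these proteins were taken as 4 lists. By genotype, 0 of 31 processing enzymes, 25 proteases and inhibitors, 30 matrix receptors and 44 other matrix proteins passed in thalamus, and 0 of 30, 24, 29 and 44 in cortex. At an unadjusted p under 0.05 there were 2, 1, 3 and 1 genes in thalamus, and 3, 2, 2 and 5 in cortex, against 3.93% and 3.77% of all genes. By region in ret/wt, the counts higher and lower in thalamus were 4 and 1 of 31 processing enzymes, 4 and 1 of 25 proteases and inhibitors, 5 and 1 of 29 receptors, and 4 and 3 of 44 other matrix proteins, against 5.44% and 7.12% of all genes. The list medians were 0.49, 0.42, 0.15 and 0.56, against 0.03 over all genes. In ret/ret they were 2 and 0 of 30, 2 and 3 of 25, 2 and 0 of 29, and 3 and 1 of 44, against 4.1% and 5.4% of all genes.

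In the ret/wt fit, Pcolce2, an enhancer of procollagen cleavage, was higher in thalamus by 2.23 ± 0.22 log2 units (edgeR adjusted p = 2.7e-04), and Plod1, a lysyl hydroxylase of collagen, by 1.19 ± 0.20 (0.00332). Pxdn, the peroxidase that cross-links collagen IV, was lower, at -1.60 ± 0.46 (0.0453). Sparc, a collagen-binding glycoprotein, was higher by 2.59 ± 0.34 (0.00106) and Spp1, osteopontin, by 2.15 ± 0.21 (2.6e-04). Thbs4, a thrombospondin, was lower, at -3.14 ± 0.42 (0.00122), and so was the integrin chain Itga4, at -2.61 ± 0.39 (0.00206). Pxdn, Sparc, Thbs4 and Itga4 were not among the genes that passed in ret/ret. Itgb4, an integrin chain that binds laminins, was higher, at 1.73 ± 0.33 in ret/wt (0.0073) and 1.62 ± 0.34 in ret/ret (0.0197). In ret/ret, where the thalamus pieces were calcifications, Spp1 was higher in thalamus by 4.20 ± 0.84 (0.0165) and Pcolce2 by 1.98 ± 0.25 (0.00393). These p-values are edgeR's, adjusted by Benjamini-Hochberg over all genes of the fit. In the interaction of genotype and region, 0 of 31 processing enzymes and 0 of 44 other matrix proteins, Spp1 included, passed.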

How the data were processed

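Polyadenylated RNA was sequenced from cortex and thalamus of 8 mice, per the labels' protocols. The deposited table gives expected counts per gene made by the authors; 99.963% of its nonzero values are not whole (tolerance 1e-06), and the step from transcripts to genes is not given in the sources used here. Kallisto 0.44.0 and GRCm38.p6 are named in the submitters' processing notes, with no role stated. Names were matched for 21581 of 21804 gene IDs (98.98%), and 0 sample columns were left without a sample.

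Expected counts were rounded and tested with edgeR 4.0.16 (quasi-likelihood test, TMM scaling, filterByExpr with a minimum count of 10 and total of 15, R 4.3.3) on the libraries of each comparison. The Benjamini-Hochberg correction covered all genes tested, with a threshold of 0.05. For genotype over both regions the counts of each mouse were summed. Log2 CPM used a prior count of 1. DESeq2 1.42.0, limma 3.58.1 (voom), other scalings and filters, blocks and left-out libraries were alternatives. The fits were tested on simulated data. The remaining steps ran in Python 3.11.15 (matplotlib 3.10.9, numpy 2.4.6, pandas 2.3.3, scipy 1.17.1).

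Cortex and thalamus of a genotype are paired by the mouse named in the labels, and the mean correlation of same-mouse deviations was 0.061 in ret/wt and 0.088 in ret/ret. Values per library were given for 18 core genes, for members past the threshold in a comparison, and for the 6 members with the smallest p in each genotype comparison; genes outside the set were named only from the lists, at most 4 per list and comparison, where they passed. Members, lists and rules were chosen with earlier results of these data known. Adamts5, Cd47, Thbs2, Myh11, Cldn5, Erg, Olig2 and Pdgfb were not analysed here. Some genes are not reported here, though counts over the set include them. For genotype, p-values measure the spread between 4 mice per genotype. The region fits within a genotype and the interaction took libraries as independent, although each mouse gave cortex and thalamus. The region fit over both genotypes had the mouse as a block, so its p-values measure the spread of differences within mice.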

Additional observations from a re-analysis of the deposited data

Results flagged for a closer look

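In 16 of 136 sets of 4 libraries, over 34 genes, 1 library lay far from the other 3. The rule was a gap to the nearest value above 0.829 of the range in CPM. That limit gives about 1 in 20 only for independent, normally distributed values. CPM need not be distributed so, and the genes share libraries, so the count is not read as an excess over chance. Ret/ret replicate 1 accounted for 7 of the 16 sets. In its cortex library Col4a1 was at 97.1 CPM (others 14.2 to 27.5) and Lama5 at 17.1 (5.77 to 7.38). In its thalamus library Col4a2 was at 64.6 CPM (24.1 to 30.2), Col3a1 at 40.4 (1.66 to 6.15), Col9a2 at 27.7 (7.54 to 10.9) and Lamc3 at 14 (1.44 to 3.38), while Col11a1 was low at 3.06 (5.61 to 6.01).

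Col18a1 stood out in both cortex groups, at 32.2 CPM in ret/wt replicate 3 (others 2.82 to 4.9) and 80.3 CPM in ret/ret replicate 2 (3.83 to 15.3), the libraries with high cerebellum genes. Ret/wt cortex replicate 2 was high for Col11a1 at 6.23 CPM (2.05 to 2.5) and Lamc1 at 35.2 CPM (23.9 to 25.1). In ret/wt cortex Col5a3 was at 1.78 CPM in replicate 4 (0.797 to 0.938) and Col6a2 at 9.07 CPM in replicate 3 (13.3 to 13.8). In ret/ret cortex replicate 4 Col14a1 was at 4.28 CPM (2.46 to 2.56). In thalamus Col11a2 was at 40.7 CPM in ret/wt replicate 4 (15.8 to 19.4) and Lamc3 at 1.99 CPM in ret/wt replicate 3 (7.73 to 8.37).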

How the results depend on the processing

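No member passed between genotypes under any alternative run, 19 in thalamus, 20 in cortex, 19 for summed regions and 26 for the interaction. Over all genes DESeq2 called 37, 38, 80 and 4 in these, and a fit with all 16 libraries called 3, 7 and 34 in the first 3. Without the mice with Y-linked reads the genes called were 1 in cortex, 0 for summed regions and 2564 by region in ret/ret, where DESeq2 called 2591. Without the set-apart cortex libraries they were 0 in cortex by genotype and 1182 by region in ret/wt. Members called by region were 11 with DESeq2 and 3 with all 16 libraries in ret/wt, 5 without the mice with Y-linked reads in ret/ret, and 14 with DESeq2 and 18 without those mice over both genotypes. The 5 stood beside the 2564 genes just named. The other member counts have no share over all genes beside them, so they are not read as results about the members. Col6a4 by region in ret/ret had a log2 fold change of 0.04 with limma-voom. The cause was not tested.

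With the replicate number as a block, members called were 5 in ret/wt and 1 in ret/ret by region, beside 1487 and 1177 genes over all. By region the replicate number is the mouse. Between genotypes equal numbers are different mice (mean correlation -0.024 in thalamus and -0.003 in cortex), and the block called 0 genes in cortex and 0 for summed regions.

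Leaving out 1 library or mouse gave 3 to 7 members in ret/wt, 1 to 4 in ret/ret and 7 to 17 over both genotypes. Over all genes it gave 0 in thalamus, 0 to 2 in cortex, 1 to 2 for summed regions, 0 for the interaction, and by region 1178 to 1797 in ret/wt, 627 to 2007 in ret/ret and 3374 to 4956 over both genotypes. Col4a1 ranged from -0.17 to 0.36 in thalamus, -0.42 to 0.82 in cortex and -0.34 to 0.44 summed, and Col4a2 from -0.13 to 0.48, -0.19 to 0.57 and -0.19 to 0.48. Lama3 ranged from -0.04 to 0.75 in the interaction, and Col6a4 from -1.35 to 0.24 by region in ret/ret. Outside these leave-outs, 506 single-gene values kept direction and side of the threshold, 14 no longer passed and 1 newly passed. Low counts limit the rare chains: Col6a5 was at 0 in 5 libraries and Col17a1 in 3.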
